A study of Homo sapiens with 24 samples.

Results

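The 10 genes described here encode chemokine receptors and chemokines of T cells: CCR4, CCR10, CCR8, CCR6, CXCR3 and CXCR4, and the ligands CCL22, CCL3, CCL4 and CCL5. They were taken by symbol from the authors' deposited tables of PRKCQ knockdown in cutaneous T cell lymphoma lines. All 10 are among the 58780 genes listed for TPA-treated cells. Of the 13025 genes listed for DMSO-treated cells 6 are among the 10, and CCR10, CCR6, CXCR3 and CCL4 have no row there. RNA was sequenced from MyLa, a line labelled as mycosis fungoides, and HuT 78, a line labelled as Sézary syndrome. Each line carried either a hairpin against PRKCQ (shPRKCQ) or a non-targeting control hairpin (NTC), and received for 24 h either TPA at 10 ng/ml or its vehicle DMSO. That makes 24 libraries in 8 groups of 3: shPRKCQ with TPA, NTC with TPA, shPRKCQ with DMSO and NTC with DMSO, each in both lines. For the knockdown, cells were kept in doxycycline at 1 µg/ml for at least 72 h before treatment; the labels do not state this for NTC cells, so effects of doxycycline and of the hairpin cannot be told apart. The sources used here do not say whether the transduced lines are clones. Within a table, 6 shPRKCQ libraries were set against 6 NTC libraries, MyLa and HuT 78 combined. Neither gives a value per library, a level or a depth, so the order of the genes by level and the spread between replicates are not analysed here.

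Chemokines are small secreted proteins that guide cells along gradients, and their receptors signal through inhibitory G proteins to integrins, actin and calcium. Memory T cells that home to skin carry CCR4 and CCR10, which read CCL17, CCL22, CCL27 and CCL28 made by skin endothelium, dendritic cells and keratinocytes, and malignant cells of cutaneous T cell lymphoma are known for CCR4, the target of the antibody mogamulizumab. PRKCQ encodes protein kinase C theta, which works below the T cell receptor to turn on NFAT, NF-kappaB and AP-1, factors known to act on several chemokine genes. TPA, a phorbol ester, turns on protein kinase C without the receptor.

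PRKCQ itself fell to 23.7% of the NTC level with TPA and to 23.1% with DMSO in the authors' deposited tables, and it had the smallest adjusted p in both. A negative log2 fold change is read here as lower in shPRKCQ cells because the headers do not state the direction and PRKCQ is negative. Of T cell markers, 12 of 12 are listed for TPA and 7 of 12 for DMSO, and 0 of the 11 and 6 with a p-value passed the authors' adjusted p of 0.05, with CD5 alone at an unadjusted p under 0.05, in TPA. With TPA 10 were positive and 1 negative, with a median log2 fold change of 0.197. With DMSO 3 were positive and 3 negative, with a median of 0.068. Over all genes with a p-value 58.3% were positive with TPA and 52.3% with DMSO, with medians of 0.00054 and 0.0075. Lists of B cell, myeloid, dendritic, epithelial or stromal and endothelial markers had 7, 6, 5, 6 and 2 genes with a p-value in TPA and 2, 1, 0, 1 and 0 in DMSO, with no call. Among them CD79B (-1.10), PDGFRB (-1.02), COL1A2 (0.80) and KRT5 (0.77) had an unadjusted p under 0.05 in TPA, given here as log2 fold changes from the authors' deposited table. Each library came from a single cultured T cell lymphoma line, so these lists are not read as shares of tissue cell types. In such bulk RNA, fewer cells that express a gene and less RNA per cell cannot be told apart.

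No receptor or chemokine with a p-value passed the authors' threshold in either treatment, and CCL22 has no p-value in either. With TPA 0 of the 8 genes with an adjusted p passed 0.05, where 0.113% of all 19417 genes tested did, and 0 of 9 had an unadjusted p under 0.05, where 2.45% of all genes with a p-value did. With DMSO 0 of 5 passed, where 0.108% of 13007 genes did, and 0 of 5 had an unadjusted p under 0.05, where 3.04% of all did. These calls rest on the authors' own adjusted p-values, with DESeq2 among the tools the submitters' processing notes name. The adjusted p-values that the 10 genes have are 0.9999 or more. Fold changes lay on both sides of 0. Among the genes with a p-value, with TPA 5 were positive and 4 negative, with a median log2 fold change of 0.010, and with DMSO 2 were positive and 3 negative, with a median of -0.10. With CCL22 counted too, 6 were positive and 4 negative with TPA, with a median of 0.095, and 3 were positive and 3 negative with DMSO, with a median of -0.00081. The medians over all genes with a p-value were 0.00054 with TPA and 0.0075 with DMSO.

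**Figure D1:**
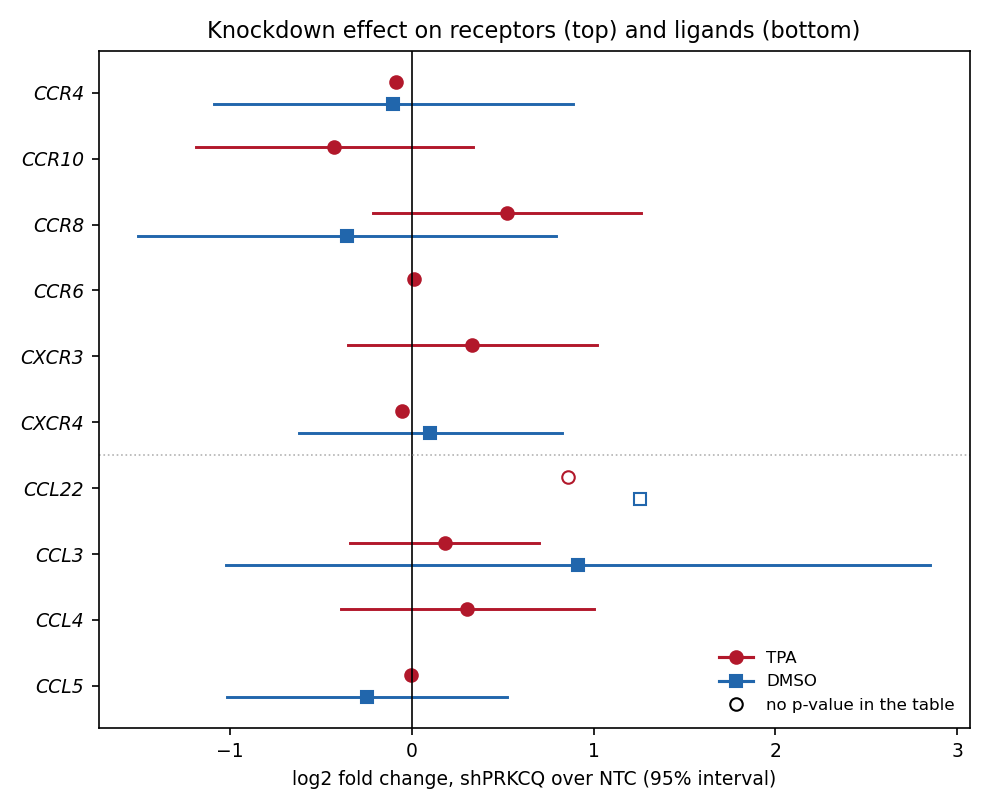
Log2 fold change of shPRKCQ over NTC cells for each gene, receptors above the dotted line and ligands below it, with TPA as red circles above DMSO as blue squares. Bars are 95% intervals from the standard error implied by the fold change and p-value; they are left out for TPA where the absolute z is under 0.5, and open symbols have no p-value. Every interval drawn crosses 0, and CCL22, with no interval, is the farthest from 0 in both treatments.

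The skin homing receptors gave no call. CCR4 (ENSG00000183813.6, chromosome 3, 32951574 to 32956349, plus strand, GRCh38) is the receptor of CCL17 and CCL22. Its log2 fold change was -0.09 with TPA (p = 0.804) and -0.10 with DMSO (p = 0.839) in the authors' deposited tables. The values correspond to 94.0% of the NTC level with TPA and 93.1% with DMSO. Its 95% interval in DMSO ran from 0.469 to 1.85 times the NTC level, which is wide on both sides of equality.

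CCR10 (ENSG00000184451.5, chromosome 17, 42678889 to 42683917, minus strand) is the receptor of the keratinocyte chemokine CCL27 and of CCL28. It had the lowest fold change of the receptors with TPA, a log2 value of -0.43 per the authors' deposited table, or 74.4% of the NTC level (p = 0.271). The interval, from 0.439 to 1.26 times the NTC level, crosses equality. CCR10 was not analysed with DMSO.

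CCR8 (ENSG00000179934.6, chromosome 3, 39329706 to 39333511, plus strand) is the receptor of CCL1 and marks T cells resident in skin as well as regulatory T cells. It had the smallest p of the 10 genes in TPA, where the authors' deposited table puts it at 0.52, or 1.44 times the NTC level (p = 0.164). With DMSO the authors' deposited table puts it on the other side of 0, at -0.36 or 78.0% of the NTC level (p = 0.541). Neither value passed, and the intervals of 0.863 to 2.39 times with TPA and 0.352 to 1.73 times with DMSO overlap. Of all genes with a p-value, 7.78% of 34024 had a smaller p than CCR8 with TPA and 42.3% of 13007 with DMSO. Only 19417 of the genes with TPA have an adjusted p, against all 13007 with DMSO, so the shares are not over like sets.

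The other receptors lead T cells to inflamed tissue, mucosa and marrow. CXCR3 (ENSG00000186810.7, chromosome X, 71615916 to 71618517, minus strand), the receptor of the interferon-induced ligands CXCL9, CXCL10 and CXCL11, was at 0.33 with TPA in the authors' deposited table (p = 0.339). Its interval ran from 0.785 to 2.02 times the NTC level, and it was not analysed with DMSO. CXCR4 (ENSG00000121966.6, chromosome 2, 136114349 to 136118165, minus strand), the receptor of the marrow chemokine CXCL12, was at -0.06 with TPA and 0.10 with DMSO in the authors' deposited tables (p = 0.861 and 0.784). Its DMSO interval was the narrowest of the receptors, from 0.650 to 1.77 times the NTC level.

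CCR6 (ENSG00000112486.16, chromosome 6, 167111807 to 167139696, plus strand), the receptor of CCL20 on T helper 17 cells, was at 0.010 with TPA in the authors' deposited table (p = 0.926). It is the 1 gene of the 10 with a p-value and no adjusted p, as are most genes of low counts when DESeq2 filters by mean count; whether that filter acted here is not given in the sources used here. CCR6 also shares its locus with Z94721.2 (166999405 to 167139141, plus strand), annotated by GENCODE 29 as a processed transcript on the same strand. Of the stretches of 75 bases in the principal CCR6 transcript, 74.4% also occur in transcripts of Z94721.2, and with stretches of 100 bases 74.3% do. Reads from there could be counted for either gene. Z94721.2, looked up after the overlap was found, was at -0.03 with TPA (p = 0.920) and 0.04 with DMSO (p = 0.928) in the authors' deposited tables. It has a row in the DMSO table where CCR6 has none, so the absence of CCR6 there does not show by itself that its locus gave no reads.

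The ligands include the largest point estimates of the 10 genes. CCL22 (ENSG00000102962.4, chromosome 16, 57358772 to 57366190, plus strand), a CCR4 ligand made by dendritic cells, macrophages and activated T cells that draws T helper 2 and regulatory T cells, had log2 fold changes of 0.86 with TPA and 1.25 with DMSO in the authors' deposited tables. These are 1.81 and 2.38 times the NTC level. Neither table gives CCL22 a p-value, so no error can be set beside the values and no call was possible. It is 1 of 61 genes in TPA and 1 of 18 in DMSO with a fold change and no p-value, and it has the largest absolute fold change among them in both tables. Of all genes with a fold change, 0.722% with TPA and 0.292% with DMSO lay at least as far from 0. DESeq2 by default withholds a p-value where a single library has an extreme count, but whether that happened here was not tested, since no value per library was used.

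CCL3 and CCL4 are the macrophage inflammatory proteins 1 alpha and 1 beta, which activated T cells secrete. Each has a close copy on chromosome 17, CCL3L1 and CCL4L2, and the coding sequences of CCL3 and CCL3L1 are set side by side to show how far reads can tell them apart. The sequences were assembled from GENCODE 29 transcripts on GRCh38, 5′ to 3′ from the start to the stop codon, each over 3 exons, and capitals mark bases that differ between a gene and its copy. CCL3 (chromosome 17, 36088672 to 36090058, minus strand) is shown with CCL3L1 (36195286 to 36196673, minus strand):
CCL3: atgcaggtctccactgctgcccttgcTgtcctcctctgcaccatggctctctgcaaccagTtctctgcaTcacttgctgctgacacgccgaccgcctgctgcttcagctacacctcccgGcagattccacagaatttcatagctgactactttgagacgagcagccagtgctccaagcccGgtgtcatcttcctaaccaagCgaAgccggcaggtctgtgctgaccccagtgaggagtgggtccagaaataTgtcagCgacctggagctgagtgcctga
CCL3L1: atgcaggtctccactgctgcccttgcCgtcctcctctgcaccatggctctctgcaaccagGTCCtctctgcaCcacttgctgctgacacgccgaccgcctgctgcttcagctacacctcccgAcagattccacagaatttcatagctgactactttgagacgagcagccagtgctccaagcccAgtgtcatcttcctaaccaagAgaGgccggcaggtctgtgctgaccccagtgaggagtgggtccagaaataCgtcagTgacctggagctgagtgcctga
CCL3 and CCL3L1 were 95.7% identical, with 9 substitutions and 3 further bases in CCL3L1, and their longest identical run was 60 bases. Counted from the A of the start codon, with the base of CCL3 first, the substitutions include T27C near the start and C258T near the end. The coding sequence of CCL4 lies at 36103906 to 36105312 and that of CCL4L2 at 36211142 to 36212569 on the same chromosome, both on the plus strand. Over the whole transcripts, 1.28% of the stretches of 75 bases in CCL3 also occur in CCL3L1, and 11.3% of those in CCL4 also occur in CCL4L2. The read length is not given in the sources used here; with stretches of 50 bases the shares were 9.88% for CCL3 and 21.3% for CCL4. The values of each gene and its copy could therefore be partly drawn from the same reads, CCL4 more than CCL3.

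CCL3 (ENSG00000277632.1) was at 0.18 with TPA (p = 0.502) and 0.91 with DMSO (p = 0.355) in the authors' deposited tables. The DMSO value is 1.88 times the NTC level, a size reached by 0.637% of all genes, yet its interval ran from 0.492 to 7.22 times. With TPA the interval ran from 0.788 to 1.63 times. CCL3L1 (ENSG00000276085.1) lay close to CCL3 in both treatments, at 0.22 with TPA (p = 0.506) and 0.87 with DMSO (p = 0.309) in the authors' deposited tables. CCL4 (ENSG00000275302.1) was at 0.30 with TPA in the authors' deposited table (p = 0.392), with an interval from -0.39 to 0.999 on the log2 scale, and was not analysed with DMSO. CCL4L2 (ENSG00000276070.4) was at 0.22 with TPA in the authors' deposited table (p = 0.759). All of these values of CCL3, CCL4 and their copies were positive and none passed the test.

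CCL5 (ENSG00000271503.5, chromosome 17, 35871491 to 35880793, minus strand), the chemokine RANTES, is made late after T cell activation and binds CCR1 and CCR3 among others. Its log2 fold change was -0.004 with TPA (p = 0.977) and -0.25 with DMSO (p = 0.532) in the authors' deposited tables. These are 99.7% of the NTC level with TPA and 84.3% with DMSO, and the DMSO interval ran from 0.495 to 1.44 times. CCL5 had the largest p of the 10 genes with TPA. In its principal annotated transcript, 9.30% of the stretches of 75 bases also occur in transcripts of other genes, among them AC027290.2 and RF00017.

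**Figure D2:**
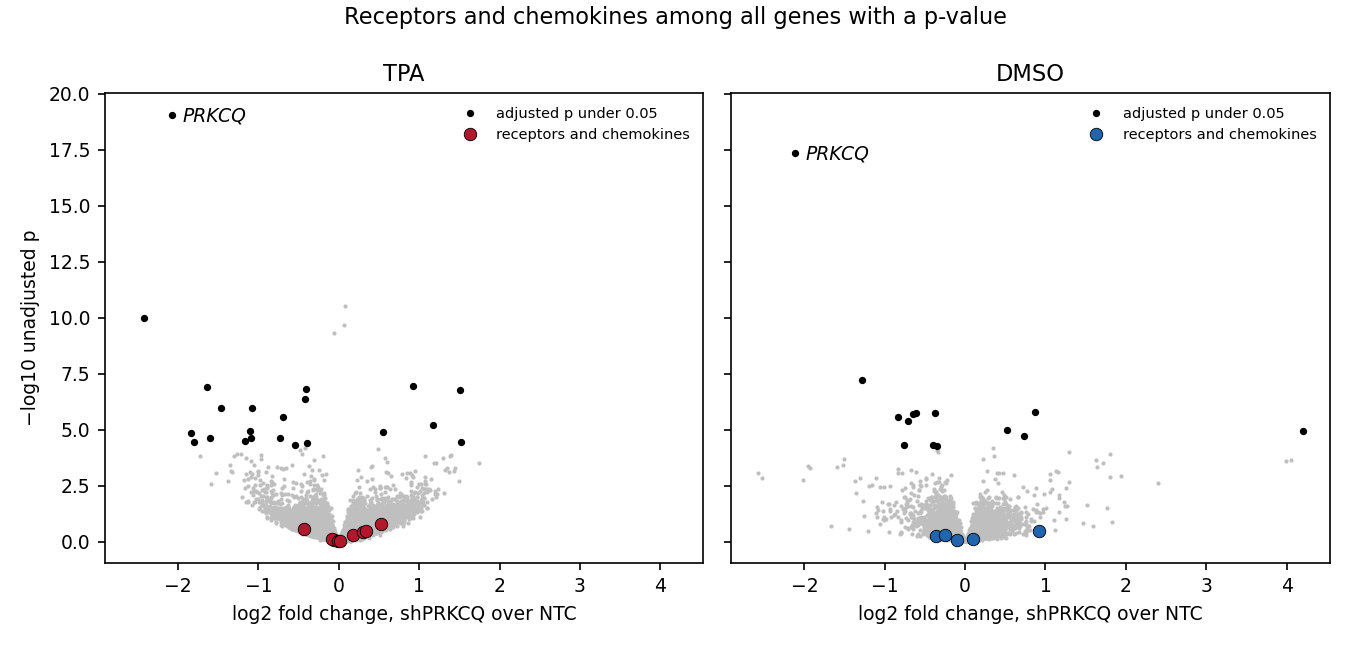
Log2 fold change of shPRKCQ over NTC cells against −log10 of the unadjusted p for all genes with a p-value, with TPA on the left and DMSO on the right. Black points passed an adjusted p of 0.05, and the coloured points, 9 with TPA and 5 with DMSO, are the receptors and chemokines; all of them lie at the base of the plot, far below PRKCQ.

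The knockdown effect was next compared between treatments, as its log2 fold change with TPA minus that with DMSO, for the 5 genes with a p-value in both. Of these 0 passed, against 0 of all 13007 genes tested (0.0%) with Benjamini-Hochberg adjustment, and 0 of the 5 had an unadjusted p under 0.05, which 57 genes (0.438%) had. The largest difference was that of CCR8, at 0.88 with an interval from -0.48 to 2.25. That of CCL3 was -0.74, with an interval from -2.74 to 1.27. CCL5 differed by 0.24, CXCR4 by -0.16 and CCR4 by 0.01. For CCL5, CXCR4 and CCR4 no interval is given, because their absolute z with TPA was under 0.5. The implied error is unreliable there, and the test of their difference rests on it. The opposite signs of CCR8 and of CXCR4 between the treatments are therefore not shown to be a difference. Fold changes of the TPA table look shrunken towards 0 by the authors, with 2910 genes sharing 1 value. The scales of the tables may therefore differ. On the difference of z-values, which do not depend on that scale, 0 of the 5 passed either. That measure compares effects relative to their errors and not their sizes, so it does not answer the same question.

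With DMSO the 5 receptors and chemokines that have a p-value were among the less precisely measured genes. The standard error implied by the fold change and p-value in DMSO was 0.37 for CXCR4, 0.39 for CCL5, 0.50 for CCR4, 0.59 for CCR8 and 0.99 for CCL3 on the log2 scale. The median over all genes was 0.17, and between 92.9% of all genes, for CXCR4, and 99.8%, for CCL3, had a smaller value. At the largest p that passed in DMSO, 5.2e-05, a gene with the error of CXCR4 would have needed a 2.81-fold change to be called, one with that of CCL5 a 3.01-fold, one with that of CCR4 a 4.11-fold, one with that of CCR8 a 5.17-fold and one with that of CCL3 a 16.0-fold change. In TPA, among the genes of the 10 with an absolute z of at least 0.5, the implied error was smallest for CCL3 and largest for CCR10. It was larger than that of 59.6% of all genes with a p-value for CCL3 and of 80.7% for CCR10. Those shares are over all 34024 genes with a p-value, with no limit on z, so they are not over like sets. How precisely CCL3 and CCR10 were measured with TPA is not read from them. CCR4, CCR6, CXCR4 and CCL5 had a smaller absolute z and are not ranked. With fold changes that look shrunken, the ratio that gives the error is unreliable there. The limit on z was applied to TPA only, and CCR4 and CXCR4 also lay under it with DMSO, at z of -0.20 and 0.27. For genes with an absolute z of at least 0.5, the same reckoning in TPA gave 2.98-fold for CCR10, 2.88-fold for CCR8, 2.66-fold for CXCR3, 2.71-fold for CCL4 and 2.12-fold for CCL3 on the scale of that table, which may understate it. At these errors, smaller changes would not have been called.

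**Figure D3:**
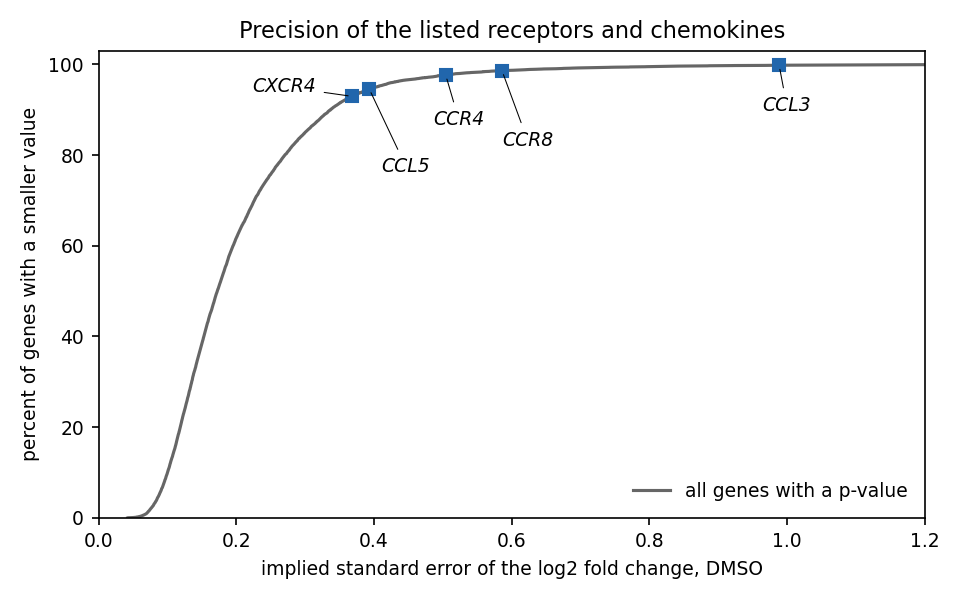
Percent of all 13007 genes with a smaller implied standard error of the DMSO log2 fold change (grey curve), with the receptors and chemokines that have a p-value marked as blue squares. CXCR4 is the lowest of the 5, at 92.9% of genes, and CCL3 the highest, at 99.8%.

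Among ligands of the 6 receptors, 10 had a p-value with TPA and 3 with DMSO, and none was called (0 of each by the authors' adjusted p). At an unadjusted p under 0.05 there were 2 with TPA and 0 with DMSO. Over all genes with a p-value, 2.45% had such a p with TPA and 3.04% with DMSO. CCL20, the CCR6 ligand that draws T helper 17 cells, was at 1.07 with TPA in the authors' deposited table, or 2.11 times the NTC level (p = 0.00280, adjusted p = 0.444). CXCL10, a CXCR3 ligand induced by interferon, was at -0.96 with TPA, or 0.515 times the NTC level (p = 0.0191), and at -0.28 with DMSO (p = 0.613) in the authors' deposited tables. CXCL9, another CXCR3 ligand, was at -0.84 with TPA in the authors' deposited table (p = 0.114). CXCL11 was at -0.22 with TPA and 0.82 with DMSO in the authors' deposited tables (p = 0.507 and 0.0983), and the difference of -1.05 between the treatments did not pass either. CCL1, the CCR8 ligand, was at 0.46 with TPA and 1.59 with DMSO in the authors' deposited tables (p = 0.343 and 0.196). The list medians were 0.13 with TPA and 0.82 with DMSO, the latter over only 3 genes. Over all genes with a p-value the medians were 0.00054 and 0.0075.

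Of the 17 other chemokine receptors, all had a p-value with TPA and 4 with DMSO, with 0 calls in each. With TPA 11 were positive and 6 negative, with a median log2 fold change of 0.021. That median is the value shared by CCR9 and CXCR6, which have no adjusted p. ACKR3, a scavenging receptor of CXCL12, had the smallest p, at 0.67 with TPA (p = 0.0429) and 0.34 with DMSO (p = 0.380) in the authors' deposited tables. CXCR2, a neutrophil receptor, was at -0.60 with TPA (p = 0.126), and CX3CR1, the fractalkine receptor, at -0.16 with DMSO (p = 0.679) in the authors' deposited tables. With DMSO 2 of the 4 were positive and 2 negative.

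Of the 24 other chemokine genes, 16 had a p-value with TPA and 0 with DMSO. None was called with TPA, and 10 were positive and 6 negative. Their median of 0.021 is the value shared by CCL2, CCL23 and CCL26, which have no adjusted p. It is also the median of the other receptors, so neither the median nor the signs are read as a shift. CXCL13, the CXCR5 ligand of T follicular helper cells, was at 1.10 with TPA in the authors' deposited table (p = 0.0307) and has no adjusted p there. XCL2, a chemokine of cytotoxic T cells, was at -0.60 (p = 0.171) and CCL25, the CCR9 ligand, at -0.20 (p = 0.596) in the authors' deposited table.

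**Figure D4:**
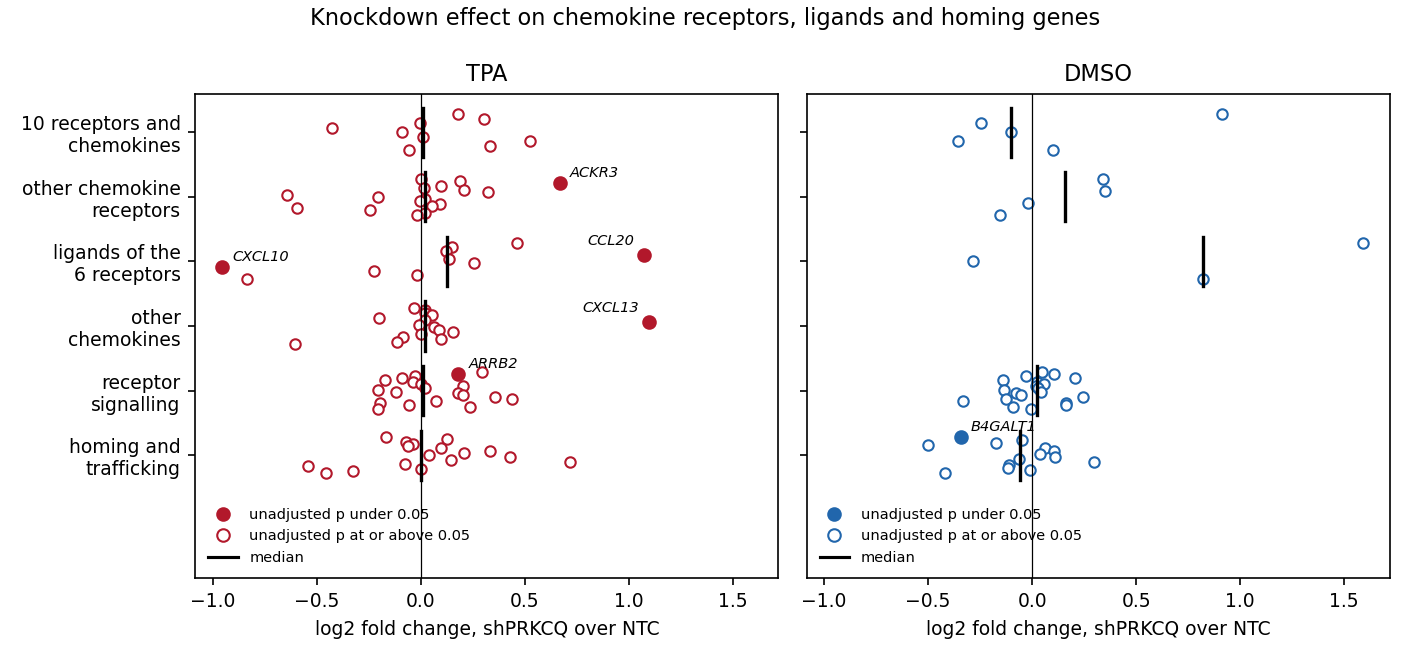
Log2 fold change of shPRKCQ over NTC cells for the genes with a p-value in each group, with TPA on the left and DMSO on the right; black bars are group medians, filled points have an unadjusted p under 0.05 and none passed the adjusted p. Group medians with TPA lie between -0.00014 and 0.13, and the group of other chemokines has no gene with a p-value with DMSO.

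Genes of receptor signalling gave no call. Of 20 with a p-value in each treatment, 10 were positive and 10 negative with TPA and 11 positive and 9 negative with DMSO, with medians of 0.0099 and 0.023. There were 0 calls in each. An unadjusted p under 0.05 was held by 1 gene with TPA and 0 with DMSO, against 2.45% and 3.04% of all genes with a p-value. ARRB2, an arrestin that ends receptor signalling, was at 0.18 with TPA (p = 0.0303) and 0.10 with DMSO (p = 0.220) in the authors' deposited tables. ARRB1, its paralog, was at 0.29 with TPA in the authors' deposited table (p = 0.109). GNAI2, the main inhibitory G protein subunit downstream of these receptors, was at -0.17 with TPA (p = 0.0987) and -0.14 with DMSO (p = 0.191), and RAC2, a GTPase of leukocyte motility, at -0.33 with DMSO (p = 0.0746) in the authors' deposited tables.

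Genes of skin homing and tissue trafficking were tested beside the receptors because skin entry also needs the carbohydrate ligand of selectins and integrins. With TPA 17 had a p-value, 8 positive and 9 negative, with a median of -0.00014. With DMSO 14 had one, 5 positive and 9 negative, with a median of -0.058. In each, 0 were called. An unadjusted p under 0.05 was held by 0 with TPA and 1 with DMSO, against 2.45% and 3.04% of all genes with a p-value. The smallest p-values with DMSO were those of B4GALT1, ST3GAL4 and FUT7. B4GALT1, a galactosyltransferase, was at -0.34 (p = 0.0162), ST3GAL4, a sialyltransferase, at -0.42 (p = 0.0594) and FUT7, a fucosyltransferase that completes the selectin ligand CLA, at -0.50 (p = 0.237) in the authors' deposited table. FUT4 and GCNT1, glycosyltransferases of the same list named after their values were seen, were at -0.17 (p = 0.288) and 0.06 (p = 0.793) with DMSO in the authors' deposited table. With TPA, ST3GAL4 was at -0.33 (p = 0.120), B4GALT1 at -0.17 (p = 0.233) and FUT7 at -0.04 (p = 0.910) in the authors' deposited table. KLF2, a transcription factor of naive T cell trafficking, was at 0.72 with TPA in the authors' deposited table (p = 0.0777).

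CCL3, CCL4 and CCL5 lie in the chemokine cluster of chromosome 17, where GENCODE 29 annotates 17 CCL genes from CCL2 to CCL4L2. With TPA 11 of them had a p-value, 9 positive and 2 negative, and with DMSO 4 had one, 3 positive and 1 negative, with 0 calls and 0 genes at an unadjusted p under 0.05 in each. Over all genes with a p-value, 58.3% were positive with TPA and 52.3% with DMSO. With TPA, CCL2, CCL13, CCL14, CCL18 and CCL23 had no adjusted p, and CCL14 had the value that 2910 genes share. CCL3L1 and CCL4L2 may share reads with CCL3 and CCL4, so these signs may not be independent. Log2 fold changes in the cluster ran from -0.033 to 0.46 with TPA and from -0.25 to 1.59 with DMSO, and CCL1 was the highest in both. The other 6 of the 17 have a row for TPA with no fold change.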

How the data were processed

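RNA from 24 libraries was analysed through the authors' 2 deposited comparison tables. Per the file headers, each deposited row holds a gene's log2 fold change, its p-value and the adjusted p-value. Tools in the submitters' processing notes are DESeq2 1.18.1, RSEM 1.3.0 and STAR 2.5.3a, with the build GRCh38 and no role for each. The sources used here give neither the model formula nor any shrinkage, and depth is unknown. Libraries were poly(A)-selected and strand-specific, per the labels' protocols.

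The 10 genes and the gene lists were chosen with earlier results of these data known. Calls are the authors' adjusted p under 0.05. A z-value came from each p-value and the sign of its fold change, and the standard error from their ratio; intervals are at 95%. Differences between treatments used these errors, taking the tables as independent, with Benjamini-Hochberg adjustment over 13007 genes. This step was tested on simulated data with planted changes many times their errors. Its power for differences as small as those of the 10 genes was not tested. Named were the 10 genes, their copies, PRKCQ, and of each list any call and the 3 smallest p-values per table. A few items are not reported here. Identifiers matched GENCODE 29. Tools were Python 3.11.15, numpy 2.4.6, scipy 1.17.1, pandas 2.3.3 and Biopython 1.88. The fit for counts was not run, since the tables hold none.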

Additional observations from a re-analysis of the deposited data

How the results depend on the processing

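The 10 genes gave 0 calls under each of the 16 alternatives run, over both treatments and their difference, while several counts over all genes moved. Not all 10 were tested in any of them. With TPA 8 or 9 were, or 5 over the genes of both tables, and 5 were with DMSO and for the difference. CCL22 has no p-value and could not have been called under any alternative. Some alternatives could not have added a call. With DMSO, adjustment over every gene with a p-value and over the genes of both tables used the same 13007 genes as the deposited values. A minimum fold change can only remove calls. With TPA 22 genes passed as deposited, 39 at an adjusted p under 0.1, 8 when adjusted over the genes of both tables and 14 with an absolute log2 fold change of at least 1. Rescaling p-values by the robust SD of z gave 2225 genes over all genes with a p-value, many of them tied near 0, and 113 over genes with an adjusted p, an alternative chosen after seeing the data. The lowest adjusted p of the 10 genes was 0.0727 in the first of these, for CCR8, and 0.805 in the second. With DMSO 14 passed, against 109 with rescaled p-values and 3 with the minimum fold change. For the difference between treatments 0 passed, against 23 rescaled. All 14 fold changes kept their sign after centring on the median of all genes. That outcome was fixed, because the medians, 0.00054 with TPA and 0.0075 with DMSO, were smaller than each absolute fold change in the same treatment. No paired analysis was possible because no value per library was at hand; left-out replicates, other normalizations, other filters and DESeq2 were not run for the same reason. Limits set by depth could not be judged, as depth is unknown.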

Other observations

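All 18 genes of the DMSO table with a fold change and no p-value also lack a p-value in the TPA table. Beside CCL22 they include CD28, the costimulatory receptor of T cells, at 0.17 with TPA and -0.67 with DMSO, MX2, an interferon-induced antiviral protein, at 0.39 and 0.37, and UCP3, a mitochondrial carrier, at 0.82 and 0.39 on the log2 scale of the authors' deposited tables. In the TPA table the 61 such genes also include CX3CL1, the chemokine fractalkine, at 0.68 and the cytokines IL9 at 0.10 and IL22 at -0.02, and TBX21, the T helper 1 regulator, at -0.30. These genes were chosen after their values were seen, and none of the values has an error.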
